A study of Mus musculus with 24 samples.

Results

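γδ T cells without the PLZF reporter (PLZF-) were compared between spleen and inguinal lymph node, across all genes of the deposited table. The comparison uses 6 of the 24 libraries of the series, 3 from PLZF- spleen and 3 from PLZF- lymph node, taken by their labels alone. The table lists 7926 genes. Of these, 11 entries merged from several genes were left out, and 2413 genes averaged at least 10 normalized reads over the 6 libraries and were tested. A normalized read is a read recovered from the deposited log2 value and scaled to a common depth. Cells of every group came from untreated male PLZF-GFP reporter mice of the C57Bl/6 strain, aged 16 to 22 weeks, and were sorted by flow cytometry into lysis buffer for Smart-seq2. The same organs also gave 3 PLZF+ spleen and 3 PLZF+ lymph node libraries, which carry the reporter and serve as the other subset. The series speaks of 10 mice pooled per replicate and 2 replicates per subset, while 3 libraries per group are labelled. Whether these are separate pools is not stated, so p-values measure the spread between these libraries.

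γδ T cells carry a T cell receptor of γ and δ chains and divide into subsets that are set apart early, in the thymus. PLZF is a transcription factor of innate-like lymphocytes and marks some of these subsets, among them cells that make interleukin 17. Spleen filters blood and holds a red pulp rich in macrophages and red cells, whereas lymph nodes drain tissues such as skin, and chemokine receptors on T cells steer them between these places.

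Every gene of the table has a q-value of at most 0.05 in the authors' own test across tissues, so the comparison starts from genes picked for such differences. Reads in these genes numbered 481230 to 789418 in PLZF- spleen libraries and 286918 to 402977 in PLZF- lymph node libraries. The 4 CD3 genes, which define T cells, summed to 4415, 3313 and 3911 normalized reads in PLZF- spleen, against 4191, 5204 and 4791 in PLZF- lymph node. The sums overlapped, but Cd3d alone did not, with 863, 932 and 695 in PLZF- spleen, against 1158, 1124 and 1188 in PLZF- lymph node. The 15 genes of CD3 and T cell receptor signalling took 2.53%, 2.41% and 2.59% of reads in PLZF- spleen, against 3.20%, 3.33% and 3.56% in PLZF- lymph node (exact permutation test, two-sided, p = 0.1). Shares here and below are of reads in the genes of the table, not of all reads of a library. The 15 genes include Ptprc, which encodes CD45 of all leukocytes. Ptprc took 4580 of 789418 reads in PLZF- spleen library 3 and 3567 of 286918 in PLZF- lymph node library 1. The shares did not overlap, but this depends on Ptprc and is no measure of T cells alone. Zbtb16, which encodes PLZF, and Trdc, the δ constant gene, were not analysed here. Marker genes of other cells (119 genes in 10 lists with members in the table) took 2.64%, 8.56% and 2.13% of reads in PLZF- spleen libraries 1, 2 and 3, against 5.73%, 1.59% and 1.63% in PLZF- lymph node libraries 1, 2 and 3. Spleen library 2 and lymph node library 1 stood apart. B cell markers took 4.42% of reads in spleen library 2, and macrophage and monocyte markers 2.94% in lymph node library 1. The mean share differed by 1.46 percentage points between spleen and lymph node (exact permutation test, two-sided, p = 0.5, where 0.1 is the smallest p that 3 against 3 libraries allow) and by -0.595 without spleen library 2. αβ T cell markers lay between 0.742% and 1.10% in all 6, and none of the 12 NK cell markers was in the table. In bulk samples, fewer cells of a type and less RNA per cell cannot be told apart.

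**Figure D1:**
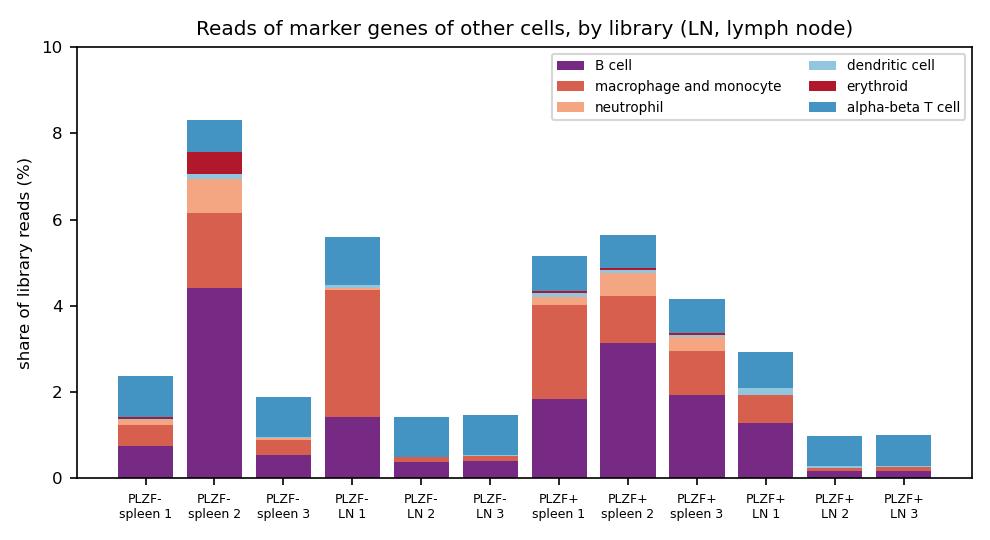
Share of each library's reads in the genes of the table (%) that fell on marker genes of other cells, stacked, for the 12 spleen and lymph node libraries. The markers are those of B cells, macrophages and monocytes, neutrophils, dendritic cells, erythroid cells and αβ T cells. PLZF- spleen library 2 has the tallest bar, with 4.42% from B cell markers, and PLZF- lymph node library 1 follows among PLZF- libraries, with 2.94% from macrophage and monocyte markers.

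In PLZF- cells, 44 of 2413 genes (1.82%) passed the test (limma, Benjamini-Hochberg adjusted p under 0.05). Of these, 16 (0.663%) were higher in spleen and 28 (1.16%) were lower. In all 44 the 3 libraries of one organ lay above the 3 of the other, as they did in 474 of all tested genes (19.6%). The lower genes included the chemokine receptors Ccr6 and Ccr10, the prostaglandin receptor Ptgdr2 and the T cell signalling gene Tespa1. The higher genes split into 7 markers of blood, red pulp or B cells and 9 genes in none of the marker lists. Among these 9 are Tnfaip3, Bcl10, Fam49b and Abhd12, but also Fcna and Itgad, which are known from macrophages. The median difference over all tested genes was 0.20 on the log2 scale, and 0.06 with median-of-ratios scaling, which gave 21 higher and 68 lower genes (23.6% higher, against 36.4% as tested; 21 higher and 49 lower, 30.0% higher, with quantile scaling). The median was negative over wider sets of genes. It was -0.16 for 5007 genes with a deposited value of at least 1 in 3 or more of the 24 libraries. For all 7915 genes it was -0.86, with 398 genes higher and 2379 lower at an unadjusted p under 0.05, against 268 and 167 as tested. Without a filter, however, 51.3% to 56.0% of genes had no reads in PLZF- spleen libraries and 54.6% to 61.9% in PLZF- lymph node libraries. There 1 read equals 0.596 to 0.967 normalized reads in PLZF- spleen and 1.14 to 1.53 in PLZF- lymph node. A gene without reads in either organ thus comes out lower in spleen from depth alone. The -0.86 and the 2379 therefore cannot be read as lower expression in spleen.

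**Figure D2:**
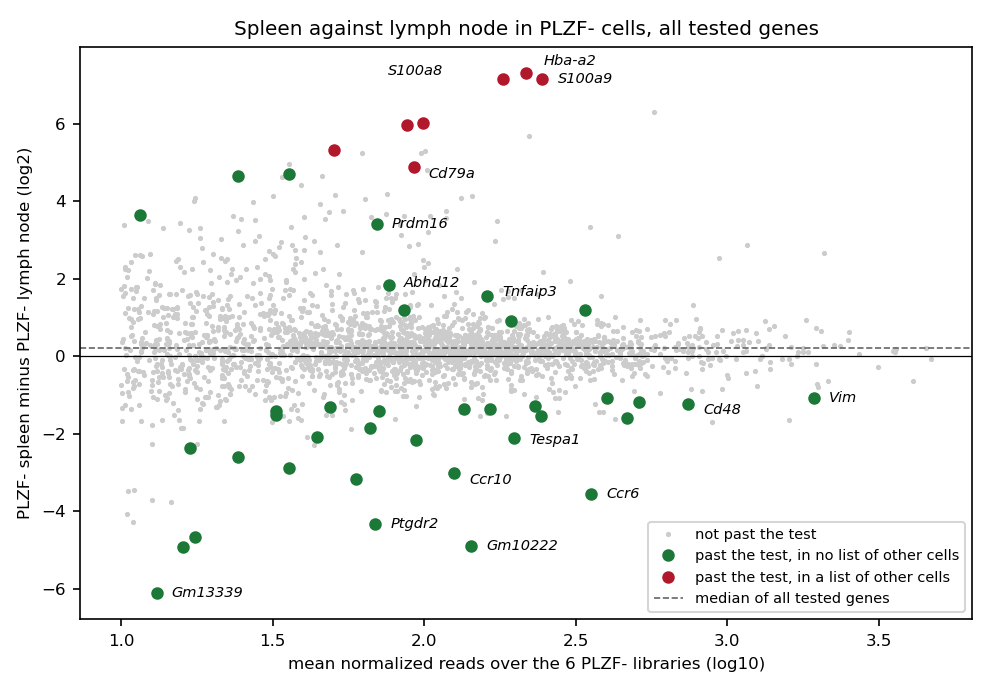
Each point is a tested gene, by its mean normalized reads over the 6 PLZF- libraries (log10) and its difference, PLZF- spleen minus PLZF- lymph node (log2). The 16 genes past the test above 0 include 7 from the lists of other cells (red), while none of the 28 below 0 is in those lists. Fcna and Itgad, known from macrophages, are in no list and are not drawn in red. The dashed line is the median of all tested genes, 0.20.

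How firmly the calls stand differs between genes. When each of the 12 spleen and lymph node libraries was left out in turn, 10 of the 44 genes passed every time, 12 were lost without 1 to 3 of the libraries and 22 without 4 or more. PLZF- lymph node library 2 mattered most, since 13 of the 44 still passed without it. With the 6 PLZF- libraries alone 1 gene passed, a gene model, and 182 genes were higher and 124 lower at an unadjusted p under 0.05. Most calls therefore rest on a spread estimated with the PLZF+ libraries. The 10 genes that passed every time were Ccr6, Ccr10, Ptgdr2, Tespa1, Cntnap1, Abhd12 and 4 gene models. Ptgdr2, Cntnap1, Hlf, Prdm16, Itgad, Fcna, Dchs1, Tdrkh, Nek6, Il1rap and Colgalt2 and the gene models fall outside the rule for named genes and were chosen after their values were seen, as were Jun, Fos, Fosb, Junb, Dusp1, Ier2 and Il17a.

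Ccr6 fell most among abundant named genes. It encodes the receptor for the chemokine CCL20 and in mice marks γδ T cells that make interleukin 17. Ccr6 had 58.1, 99.6 and 24.4 normalized reads in PLZF- spleen, against 457, 934 and 556 in PLZF- lymph node. Every lymph node library lay far above every spleen library, and the difference was -3.56 ± 0.46 (log2, SE, adjusted p = 0.00689). In PLZF+ cells Ccr6 had 303, 510 and 310 normalized reads in spleen, against 1029, 1092 and 1363 in lymph node. The PLZF+ difference of -1.67 did not pass (adjusted p = 0.0807), and the 2 differences were not shown to differ (adjusted p = 0.354). Over all 8 groups of the series, mean Ccr6 was lowest in PLZF- adipose tissue (25.1 ± 19.9 normalized reads), followed by PLZF+ adipose tissue (28 ± 10.2), PLZF- spleen (60.7 ± 37.7), PLZF- lung (86.7 ± 28.3), PLZF+ lung (359 ± 73.5), PLZF+ spleen (374 ± 117), PLZF- lymph node (649 ± 252) and PLZF+ lymph node (1161 ± 177; SD, n = 3 each). Neighbours among the first 4 of these groups differed by less than their summed SDs, and so did PLZF+ lung and PLZF+ spleen, and PLZF+ spleen and PLZF- lymph node.

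Ccr10, the receptor for CCL27 and CCL28, chemokines of skin and mucosa, followed the same pattern. It had 36.0, 32.9 and 16.7 normalized reads in PLZF- spleen, against 225, 256 and 185 in PLZF- lymph node (log2 difference -3.01 ± 0.41, adjusted p = 0.00794). The organs did not overlap, and mean levels were 2.23 ± 1.95 in PLZF- adipose tissue and 0.669 ± 1.16 in PLZF- lung, both below PLZF- spleen (28.5 ± 10.4; SD, n = 3 each). The lung values are coarse, since 1 read in PLZF- lung libraries 2 and 3 equals 9.52 and 9.14 normalized reads. Ccr10 (chr11:101172997-101175443, minus strand, GENCODE M21 on GRCm38) lies inside the span of Cntnap1 (chr11:101170523-101190724, plus strand) without a shared exon. Cntnap1 encodes a contactin-associated protein known from myelinated axons. It had 22.0, 8.70 and 7.15 normalized reads in PLZF- spleen, against 68.8, 120 and 130 in PLZF- lymph node (log2 difference -3.16 ± 0.46, adjusted p = 0.00801). No label gives a stranded library, so reads from an intron of one and an exon of the other cannot be assigned by strand.

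Ptgdr2 encodes CRTH2, the prostaglandin D2 receptor of type 2 lymphocytes, eosinophils and basophils. It had 10.7, 1.93 and 8.94 normalized reads in PLZF- spleen, against 119, 182 and 91.3 in PLZF- lymph node. The organs lay far apart without overlap, and the difference was -4.33 ± 0.57 (log2, adjusted p = 0.00689). In PLZF+ cells it had 56.0, 80.5 and 27.9 normalized reads in spleen, against 472, 604 and 689 in lymph node, and it fell there too (log2 difference -3.52, adjusted p = 0.0119). Exons of Ptgdr2 share 1031 bases, 39.0% of its exon bases, with Ccdc86 on the other strand, and reads from these bases cannot be told apart.

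Tespa1, which acts in T cell receptor signalling of thymocytes, had 53.4, 119 and 60.2 normalized reads in PLZF- spleen, against 246, 365 and 345 in PLZF- lymph node (log2 difference -2.11 ± 0.30, adjusted p = 0.00798). Spleen and lymph node libraries did not overlap. In PLZF+ cells Tespa1 had 258, 235 and 203 in spleen and 331, 331 and 391 in lymph node, a difference of -0.60 that did not pass (adjusted p = 0.293). Hlf, a transcription factor of blood stem cells and of the circadian output, had 10.7, 13.5 and 3.58 normalized reads in PLZF- spleen, against 45.8, 77.0 and 65.0 in PLZF- lymph node (log2 difference -2.88, adjusted p = 0.0145). Its call was lost without lymph node library 2 (adjusted p = 0.0633). Hlf and Ptgdr2 were 2 of the 3 genes that fell in spleen in both subsets; the other was Tdrkh (log2 difference -1.32 in PLZF- and -1.09 in PLZF+ cells), whose exons share 36.7% of their bases with Oaz3.

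**Figure D3:**
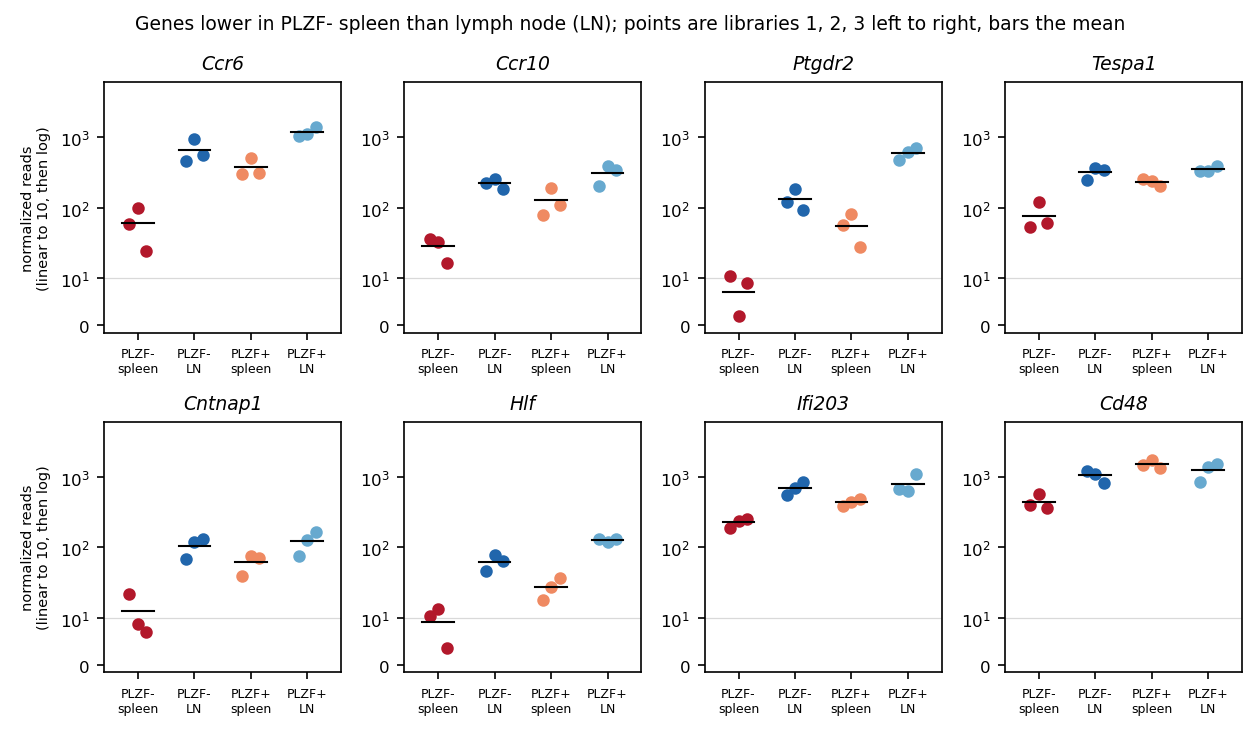
Normalized reads (linear up to 10, then log scale) of 8 genes lower in PLZF- spleen than in PLZF- lymph node, with the PLZF+ groups beside them. Points are single libraries and bars the mean of 3. In each panel the 3 PLZF- spleen points lie below the other 9 points; for Ptgdr2 they lie at 10.7, 1.93 and 8.94.

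Ifi203 and Mndal, interferon-inducible DNA sensors of one gene family on chromosome 1, differed by -1.61 and -1.55 (log2). Ifi203 had 190, 239 and 256 normalized reads in PLZF- spleen, against 549, 703 and 852 in PLZF- lymph node. The genes share 37 exon bases, and their family holds close copies among which reads could be split, so the level of each is uncertain. Cd48, a surface ligand of the SLAM family, had 401, 562 and 364 normalized reads in PLZF- spleen, against 1219, 1089 and 819 in PLZF- lymph node (log2 difference -1.24, adjusted p = 0.0398). Vim, the intermediate filament vimentin, had 1581, 1089 and 1043 in PLZF- spleen, against 2993, 2792 and 2077 in PLZF- lymph node (log2 difference -1.09, adjusted p = 0.0381). Wnk1, a kinase of ion transport, Nipbl, the loader of cohesin, Picalm, a clathrin adaptor, Mgat4a, a glycosyltransferase, and Pcf11, a factor of transcript termination, differed by -1.09 to -1.37. Calls of Cd48, Vim, Wnk1, Nipbl, Picalm, Mgat4a and Pcf11 were lost without 8 to 10 of the 12 libraries, that of Mndal without 6 and that of Ifi203 without 3 (PLZF- lymph node 2 or 3 or PLZF- spleen 1, adjusted p = 0.0565 to 0.067). Among less abundant genes Il1rap, a subunit of the interleukin 1 receptor, Nek6, a mitotic kinase, and Colgalt2, a collagen glycosyltransferase, also fell (log2 differences -1.53, -1.41 and -4.67), and their calls were lost without 9 or 10 libraries.

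For all 28 genes that fell, the 3 PLZF- spleen libraries lay below every one of the other 9 spleen and lymph node libraries, PLZF+ ones included. Over all tested genes this held for 67 (2.78%). That share is no like base, since the 28 were picked for low values in PLZF- spleen. It thus cannot show that PLZF- spleen stands apart. The PLZF- lymph node part of that order follows from the test, whereas the PLZF+ libraries had no part in the contrast, though they helped to estimate the spread. Of the 16 genes that rose, 3 (Itgad, Fam49b and Bcl10) had all PLZF- spleen libraries above the other 9, against 101 of all tested genes (4.19%).

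Of the 28 genes that fell, 9 are gene models without a name, against 0 of the 16 that rose. The share of gene models among all tested genes was not counted. These counts are therefore description only. Transcripts of Gm10222, Gm13339, Gm37663, Gm43430 and Gm37334 were aligned to other transcripts, and 2 of these match mitochondrial genes. The remaining models were not searched. Gm10222 had 3.34, 28 and 5.96 normalized reads in PLZF- spleen, against 382, 250 and 186 in PLZF- lymph node (log2 difference -4.91 ± 0.70, adjusted p = 0.00798). PLZF+ libraries had 339, 92.7 and 150 in spleen and 217, 155 and 214 in lymph node, all above PLZF- spleen. The PLZF- and PLZF+ differences were not shown to differ, however (-4.71 on the log2 scale, limma, adjusted p = 0.1225). Gm13339 had 0 reads in all 3 PLZF- spleen libraries, against 27.5, 14.6 and 36.5 normalized reads in PLZF- lymph node, at least 11.8-fold lower with a floor of 3 reads per spleen library. The transcript of Gm10222, an unprocessed pseudogene (chr1:24612407-24612700, minus strand), is 294 bases long and identical over all of them to mt-Nd4l, a subunit of respiratory complex I encoded in mitochondrial DNA. That of Gm13339, also an unprocessed pseudogene (chr2:22590024-22590533, minus strand), matches mt-Nd2 over 510 bases at 96.7% identity. The first 90 bases of each model are shown, beside bases 529 to 618 of mt-Nd2, because they let a reader see how alike the sequences are, with bases that differ from the mitochondrial gene in capitals (GENCODE M21, GRCm38).
Gm10222: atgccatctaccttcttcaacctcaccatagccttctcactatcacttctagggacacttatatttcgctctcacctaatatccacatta
Gm13339: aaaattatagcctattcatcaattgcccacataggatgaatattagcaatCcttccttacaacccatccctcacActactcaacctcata
mt-Nd2: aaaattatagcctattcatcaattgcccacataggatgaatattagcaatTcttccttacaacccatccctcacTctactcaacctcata
Over the 90 bases of Gm10222 no base differs from mt-Nd4l, and over those of Gm13339 there are 2 differences from mt-Nd2. Reads from Gm10222 and mt-Nd4l cannot be told apart by sequence, and the mitochondrial genes themselves were not analysed here. Gm37663 (0, 0.967 and 1.19 normalized reads in PLZF- spleen, against 15.3, 21.3 and 57.1 in PLZF- lymph node) and Gm43430 (16.7, 19.3 and 14.3, against 82.5, 74.4 and 59.3) fell as well. Their transcripts matched no other transcript over 200 or more bases at 90% identity or more.

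Among genes higher in PLZF- spleen, 7 belonged to marker lists of other cells. The neutrophil genes S100a8 and S100a9 had 155, 905 and 29.8 and 188, 1238 and 39.4 normalized reads in PLZF- spleen libraries 1, 2 and 3. In PLZF- lymph node S100a8 had 3.06, 0 and 0, and S100a9 had 7.64, 0 and 0. Hba-a2, an α globin with a near-identical copy, Hba-a1, had 134, 1156 and 7.15 in PLZF- spleen and 0 in every PLZF- lymph node library, at least 108-fold higher in spleen with a floor of 3 reads per lymph node library. Mmp9, a neutrophil protease, Slc40a1, the iron exporter of red pulp macrophages, and the B cell genes Cd79a and Fcmr also rose (log2 differences 4.89 to 6.03). In each of these 7 genes spleen library 2 was highest and spleen library 3 lowest among spleen libraries. The marker shares above, which count these genes too, run in the same order. Without spleen library 2, S100a8 (log2 difference 5.92, adjusted p = 0.0112), S100a9, Cd79a (3.62, adjusted p = 0.00371), Fcmr and Hba-a2 (5.58, adjusted p = 0.0112) still passed, while Mmp9 (4.94, adjusted p = 0.0696) and Slc40a1 (4.94, adjusted p = 0.0924) did not. Without other single libraries calls were lost too: S100a8 and Cd79a without PLZF- lymph node 2, Cd79a also without PLZF- lymph node 3, and S100a9 and Hba-a2 without either of these or PLZF- spleen 1. Of the 12 libraries, 7 were each needed for the call of Mmp9, 8 for that of Fcmr and 10 for that of Slc40a1. Fcna, a ficolin made by macrophages, and Itgad, an integrin subunit of splenic macrophages, were in no list. Fcna had 30.7, 99.6 and 13.1 normalized reads in PLZF- spleen, against 1.53, 1.33 and 0 in PLZF- lymph node, and Itgad had 56.0, 67.7 and 75.7, against 13.8, 1.33 and 0. Fcna followed the library order of the 7 genes, whereas Itgad did not and was highest in spleen library 3. In PLZF+ spleen Itgad had 32.0, 43.1 and 32.9 normalized reads, below every PLZF- spleen library. The call of Fcna was lost without spleen library 2 (adjusted p = 0.0775) and without 8 of the 12 libraries in all, that of Itgad without PLZF- lymph node 2 or PLZF- spleen 1 or 3. The part of other cells in these genes was not tested.

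By list, 2 of 27 tested B cell genes, 1 of 18 macrophage and monocyte genes, 3 of 7 neutrophil genes and 1 of 2 erythroid genes rose, against 0.663% of all tested genes, with median differences of 2.86, 2.88, 3.73 and 6.5 (log2), against 0.20 over all genes. By share of reads the macrophage and monocyte list was not higher in spleen, with a mean of 0.858% against 1.05% in lymph node. Its shares were 0.480%, 1.74% and 0.352% in PLZF- spleen libraries 1, 2 and 3, against 2.94%, 0.107% and 0.114% in PLZF- lymph node. These values depend on single libraries. Without spleen library 2 the B cell median was 1.89 with 2 calls and the macrophage median 2.09 with 0 calls, and without lymph node library 1 they were 4.10 with 5 calls and 4.89 with 8 calls. The neutrophil median was 2.68 with 2 calls and 5.46 with 5 calls in these fits, and the erythroid one 4.67 and 6.86 with 1 call each. None passed among 3 dendritic cell, 9 αβ T cell, 3 adipocyte, 1 platelet, 1 endothelial and 1 fibroblast genes tested. Trbc1, a constant gene of the T cell receptor β chain, had 1483, 1107 and 1376 normalized reads in PLZF- spleen and 1655, 1331 and 1365 in PLZF- lymph node.

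Abhd12, a lysophosphatidylserine lipase, had 83.4, 119 and 158 normalized reads in PLZF- spleen, against 27.5, 43.8 and 27.4 in PLZF- lymph node (log2 difference 1.83 ± 0.29, adjusted p = 0.0133). The organs did not overlap, and the call held without any 1 library. Fam49b, which restrains actin remodelling at the T cell receptor, had 398, 455 and 568 normalized reads in PLZF- spleen, against 194, 173 and 252 in PLZF- lymph node (log2 difference 1.2 ± 0.20, adjusted p = 0.017). It was lost without lymph node library 2 or spleen library 3 (adjusted p = 0.0638 to 0.0732). Sec14l1, a lipid-binding protein, had 121, 127 and 110, against 61.1, 42.5 and 53.6 (log2 difference 1.19, adjusted p = 0.0179), and was lost without lymph node library 2 or spleen library 1 (adjusted p = 0.0702 to 0.0732). Prdm16, a transcription factor of stem cells and brown fat, had 76.1, 102 and 208 in PLZF- spleen, against 6.11, 17.3 and 10.3 in PLZF- lymph node. Its difference of 3.41 passed (adjusted p = 0.021) but not without lymph node library 3 or spleen library 3 (adjusted p = 0.0606 to 0.0783). Dchs1, a large cadherin, also rose and was lost without 7 libraries.

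Tnfaip3 and Bcl10 act on NF-κB: the first encodes A20, a deubiquitinase that NF-κB induces and that restrains it, the second an adaptor that links antigen receptors to it. Tnfaip3 had 266, 173 and 280 normalized reads in PLZF- spleen, against 55.0, 87.7 and 104 in PLZF- lymph node (log2 difference 1.55 ± 0.31, adjusted p = 0.0343). Bcl10 had 236, 248 and 273, against 148, 136 and 119 (log2 difference 0.91 ± 0.19, adjusted p = 0.0361). Neither gene overlapped between the organs, but Tnfaip3 was lost without 6 libraries (PLZF- lymph node 2, PLZF- spleen 1 or 3, PLZF+ lymph node 2 or 3, PLZF+ spleen 2) and Bcl10 without 9.

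Tnfaip3 stands in the list of immediate early genes and genes induced by cell handling. Of its 38 tested members 1 rose, Tnfaip3 itself, and none fell, against 0.663% and 1.16% of all tested genes. The list's median difference was 0.77 (log2), against a median of 0.20 over all genes. In 34 of 38 the difference exceeded that median, and in 19 (50%) the organs did not overlap, against 19.6% of all genes. Ier2 had 498, 699 and 495 normalized reads in PLZF- spleen, against 119, 244 and 237 in PLZF- lymph node (adjusted p = 0.0868). Jun, a subunit of AP-1, had 109, 391 and 66.8, against 30.6, 14.6 and 6.85 (adjusted p = 0.113). Nfkbiz, an inducible regulator of NF-κB targets, had 230, 277 and 231, against 125, 132 and 128 (adjusted p = 0.0583), and Tob1, a brake on proliferation, had 51.4, 56.1 and 73.9, against 6.11, 23.9 and 13.7 (adjusted p = 0.0601). Spleen library 2, the one richest in markers of other cells, was the highest spleen library in 26 of the 38 (68.4%), Jun, Fos, Fosb, Junb and Dusp1 among them, against 36.2% of all tested genes. Without that library the list's median was 0.62. Rgs1, a regulator of G protein signals, went the other way, with 60.1, 98.6 and 58.4 in PLZF- spleen and 232, 157 and 189 in PLZF- lymph node (log2 difference -1.44, adjusted p = 0.073), and it passed without spleen library 2 (adjusted p = 0.0423) or without PLZF+ spleen library 1 or 3.

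**Figure D4:**
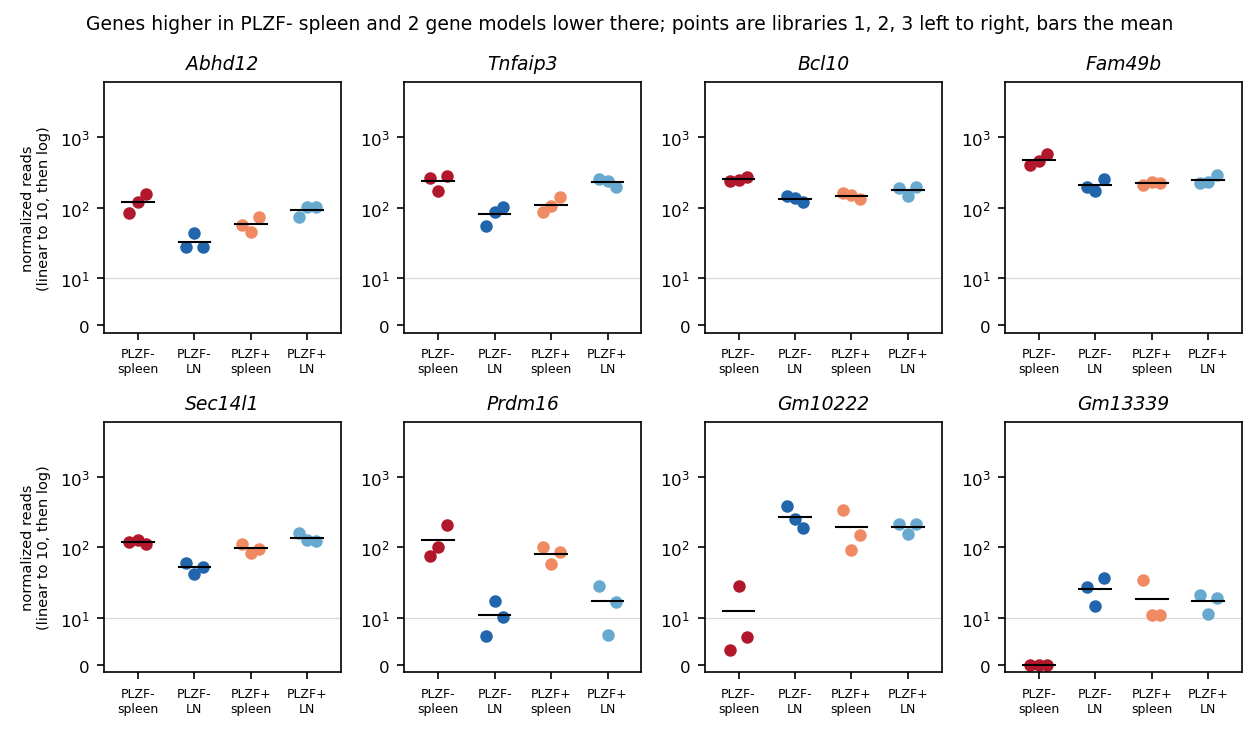
Normalized reads (linear up to 10, then log scale) of 6 genes higher in PLZF- spleen than in PLZF- lymph node and of the gene models Gm10222 and Gm13339, with the PLZF+ groups beside them. Points are single libraries and bars the mean of 3. Gm13339 sits at 0 in all 3 PLZF- spleen libraries, and Tnfaip3 is high in PLZF- spleen and low in PLZF- lymph node, with the PLZF+ groups in the opposite order.

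Promoters of Ccr6 and Tnfaip3, a falling and a rising gene with known regulators, are shown. Among the genes named in this paragraph, only the printed entries held a match. The shares of promoters given below are per entry, not for the best of several. RORγt, which drives the interleukin 17 programme, binds sites built on AGGTCA, and NF-κB binds sites of the form GGG, any 2 bases, then TTTCC. Both strands of 300 bases were searched, 250 before to 50 after each RefSeq start (GRCm38.p6), and matches are in capitals. Ccr6 and Tnfaip3 have 2 entries each, of which the one farther upstream is printed.
Ccr6, chr17:8235793-8236092, plus strand: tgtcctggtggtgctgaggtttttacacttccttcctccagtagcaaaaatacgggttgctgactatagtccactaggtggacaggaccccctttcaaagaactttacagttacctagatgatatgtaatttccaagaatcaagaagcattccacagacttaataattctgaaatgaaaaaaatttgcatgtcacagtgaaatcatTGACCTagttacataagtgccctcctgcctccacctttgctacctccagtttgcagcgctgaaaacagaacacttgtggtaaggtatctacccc
Tnfaip3, chr10:19015361-19015660, minus strand: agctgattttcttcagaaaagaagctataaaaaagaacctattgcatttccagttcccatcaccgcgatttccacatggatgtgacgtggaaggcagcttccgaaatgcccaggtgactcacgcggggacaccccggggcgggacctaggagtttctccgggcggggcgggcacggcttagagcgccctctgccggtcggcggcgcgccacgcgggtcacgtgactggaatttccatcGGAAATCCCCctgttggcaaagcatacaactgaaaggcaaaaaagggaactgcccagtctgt
The Ccr6 window holds 1 AGGTCA match, on the other strand, as do 16.3% of 32851 promoters of that length. The Tnfaip3 window holds 1 match to the NF-κB form, also on the other strand, as do 1.63% of promoters. The other entries of both genes and those of Ptgdr2, Hlf, Bcl10, Sec14l1 and Prdm16 held neither. A match describes the letters only.

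Of 5 tested members of the interleukin 17 programme, Ccr6 fell, against 1.16% of all tested genes, and the other 4 did not pass. The median difference over all 5, Ccr6 included, was -1.64 (log2). 5830411N06Rik, a scavenger receptor gene and a marker of interleukin 17-making γδ T cells, had 649.9, 628 and 572 normalized reads in PLZF- spleen, against 550.0, 3885 and 3298 in PLZF- lymph node (adjusted p = 0.203). Lymph node library 1, rich in macrophage markers, thus resembled spleen, and without it the gene fell by 2.54 (log2, adjusted p = 0.00655). That was the lowest adjusted p with 1 library left out, and the highest was 0.45 (0.274 without spleen library 2). Tcrg-V4, a variable segment of the γ chain, had 98.8, 205 and 123 in PLZF- spleen, against 194, 612 and 423 in PLZF- lymph node (adjusted p = 0.108). With 1 library left out its adjusted p ran from 0.0158, without lymph node library 1, to 0.305. Itgae, the integrin CD103 of lymphocytes that lodge in epithelia, had 156, 144 and 271, against 241, 925 and 812 (adjusted p = 0.135). Its adjusted p ran from 0.014, again without lymph node library 1, to 0.317 with 1 library left out. The cytokine gene Il17f had 2.67, 3.87 and 0 in PLZF- spleen, against 7.64, 51.8 and 21.7 in PLZF- lymph node (adjusted p = 0.201), and Il17a was below the minimum, with 0.667, 0 and 1.19, against 0, 22.6 and 1.14.

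Among 15 tested chemokine receptors and adhesion genes, Ccr6 and Ccr10 fell, against 1.16% of all tested genes, and none rose, and the list's median difference was 0.40 (log2). Of 13 tested tissue residency genes Ccr10 fell. In the interferon-stimulated list 1 of 22 tested genes fell, Ifi203, and the median was -0.23. Irgm2, Tgtp1 and Tgtp2, interferon-induced GTPases, passed only without lymph node library 1 among the single libraries left out (log2 differences -1.23, -1.73 and -1.59, adjusted p = 0.0381, 0.0203 and 0.0282), and Tgtp1 and Tgtp2 are close copies that can share reads.

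No gene passed in the lists of naive and lymphoid homing (5 tested), interferon γ and cytotoxic function (8), γδ T cell receptor segments (8), CD3 and T cell receptor signalling (15), cytokines and their receptors (14) or inhibitory receptors (8). Tcf7, a transcription factor of naive and memory T cells, had 1803, 1207 and 2120 normalized reads in PLZF- spleen, against 518, 1076 and 1271 in PLZF- lymph node (adjusted p = 0.187). None passed either among genes of glycolysis (5 tested), nuclear oxidative phosphorylation (13), lipid uptake, storage and oxidation (13), fatty acid and sterol synthesis (7), cytosolic ribosomal proteins (18), heat shock (7) or the cell cycle (5). Fasn, fatty acid synthase, had 388, 337 and 366 in PLZF- spleen, against 286, 229 and 293 in PLZF- lymph node (adjusted p = 0.307). Slc16a3, a lactate exporter, had 31.4, 78.3 and 20.9, against 19.9, 3.99 and 18.3 (adjusted p = 0.23).

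In PLZF+ cells the same contrast gave 50 genes higher (2.07%) and 20 lower (0.829%) in spleen. Each contrast compares its own 6 libraries, but both use the spread estimated from all 12, so the lists are not independent. Of the genes that rose, 8 were shared, 50% of the PLZF- list and 16.0% of the PLZF+ list. These were the 7 genes of the lists of other cells and Fcna, and none of Tnfaip3, Abhd12, Fam49b or Bcl10 was among them. Of those that fell, 3 were shared, 10.7% and 15%. The difference between the contrasts was tested directly, and 7 genes (0.29%) passed. Tnfaip3 had 85.8, 105 and 140 normalized reads in PLZF+ spleen, against 257, 241 and 197 in PLZF+ lymph node, the reverse of its order in PLZF- cells (difference of the contrasts 2.64 on the log2 scale, adjusted p = 0.0397). Abhd12 had 56.0, 45.9 and 72.8 in PLZF+ spleen, against 73.4, 101 and 102 in PLZF+ lymph node (2.50, adjusted p = 0.0397). Sec14l1 had 112, 83.4 and 94.7, against 162, 127 and 125 (1.69, adjusted p = 0.0397). These 3 calls were lost without 8 to 11 of the 12 libraries.

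Slamf6, a SLAM family receptor of T cell development, and Art2b, a surface ADP-ribosyltransferase, also passed this test, with PLZF+ lymph node the lowest of the 4 spleen and lymph node groups. The call of Slamf6 held in every alternative tried, while that of Art2b was lost without 9 of the 12 libraries and under voom, quantile scaling, a pseudocount of 5 and other settings (adjusted p = 0.0574 to 0.268). Slamf6 had 360, 422 and 472 normalized reads in PLZF- spleen and 313, 266 and 349 in PLZF- lymph node, whereas PLZF+ cells had 558, 434 and 508 in spleen and 19.0, 29.1 and 41.3 in lymph node. Art2b had 61.4, 112 and 138 in PLZF- spleen and 21.4, 39.9 and 74.2 in PLZF- lymph node, whereas PLZF+ cells had 125, 105 and 106 in spleen and 4.12, 1.27 and 1.01 in lymph node. Neither passed in PLZF- cells (adjusted p = 0.412 and 0.223). The other two of the 7 were the gene models Gm13339 and Gm43430, low in PLZF- spleen alone.

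**Figure D5:**
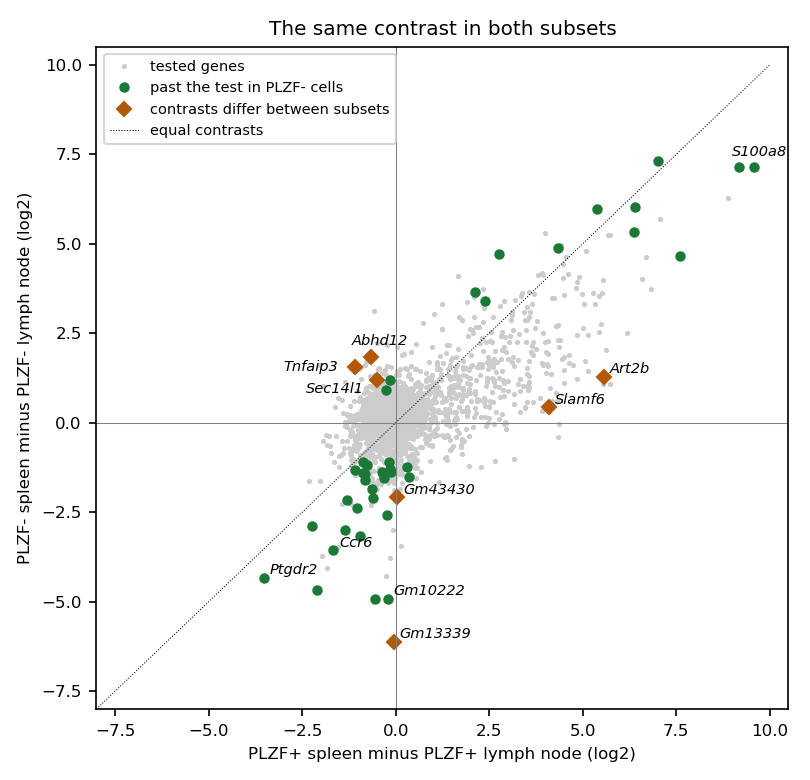
Each point is a tested gene, by its spleen minus lymph node difference in PLZF+ cells (x, log2) and in PLZF- cells (y, log2). Diamonds mark the 7 genes whose contrasts differed between the subsets, green points the other genes past the test in PLZF- cells. Tnfaip3, Abhd12 and Sec14l1 lie above 0 in PLZF- and below 0 in PLZF+ cells, and Slamf6 and Art2b lie far to the right.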

How the data were processed

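The authors deposited log2 expression values, which per the file headers carry TMM factors, for genes they kept by a test over tissues, with the authors' p-values and q-values (largest p-value 0.0093). The submitters' processing notes name HISAT 0.1.6, SAMtools 1.2, Cufflinks 1.2 and mm10. Adding 0.5 to a whole number of reads, taking log2 and shifting by a constant for its library and another for its gene gives back each deposited value, so whole reads were recovered for all 7926 genes (99.98% of values that allow the check within 0.01 reads plus printing error, at most 0.25). Normalized reads are these reads scaled to a common depth.

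Group means of 12 spleen and lymph node libraries in 4 groups (8 residual degrees of freedom) were fitted to the deposited log2 values with limma 3.58.1 (R 4.3.3), with a trend and no replicate block, for the 2413 genes that averaged 10 or more normalized reads over the PLZF- libraries. Benjamini-Hochberg adjusted p under 0.05 was the threshold. Within each of these 4 groups no library was a duplicate of another: all replicate pairs differed by more than sampling noise. The fit was also run on simulated counts with the same spread for every gene and 200 changed genes. No simulated library was richer in other cells, so that run cannot vouch for the fit to these uneven libraries. Named genes are those past the test, without overlap and above the median mean of 87.5 normalized reads, up to 12 each way by size, plus the 4 smallest p of each of 29 lists and the 8 smallest p of the difference between subsets. Gene models were left out of the first part. Members and lists were chosen with earlier results of these data known. Alternatives were other filters, pseudocounts, scalings, tests, sets of libraries, a replicate block and each library left out. A last one, without PLZF- spleen library 2 and PLZF- lymph node library 1, was chosen after seeing the data. A second deposited file was not used. Sequences were aligned with blastn 2.17.0. Python packages were matplotlib 3.10.9, scipy 1.17.1, numpy 2.4.6 and pandas 2.3.3.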

Additional observations from a re-analysis of the deposited data

Results flagged for a closer look

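The contrast of spleen with lymph node differed between PLZF- and PLZF+ cells, by a test of the difference itself (limma, adjusted p under 0.05), in 7 genes. The PLZF- contrast minus the PLZF+ contrast was -3.68 for Slamf6 (adjusted p = 0.00193), -4.29 for Art2b (adjusted p = 0.0397), 2.64 for Tnfaip3, 2.5 for Abhd12 and 1.69 for Sec14l1 (adjusted p = 0.0397 for each of the 3), all on the log2 scale. For the gene models it was -2.13 for Gm43430 (adjusted p = 0.0196) and -6.07 for Gm13339 (adjusted p = 0.00491), and the last of these is a fitted value against libraries at 0 reads, so it depends on the 0.5 reads added to each count. Slamf6 and Gm13339 kept their calls without any 1 library, but Gm13339 lost its call under limma voom and with pseudocounts of 1 and 5 (adjusted p = 0.0876 to 0.168). The other calls were lost without 5 (Gm43430), 8 (Abhd12), 9 (Tnfaip3 and Art2b) or 11 (Sec14l1) of the 12 libraries.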

How the results depend on the processing

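The counts of genes higher and lower in PLZF- spleen were 16 and 28, and 7 genes differed between the subsets. They were 6, 11 and 3 with all 24 libraries in the fit, 10, 31 and 2 with limma voom, and 302, 184 and 48 with library quality weights. Median-of-ratios scaling gave 21, 68 and 8, and quantile scaling 21, 49 and 3. With the 6 PLZF- libraries alone they were 0 higher and 1 lower (limma; 182 higher and 124 lower at an unadjusted p under 0.05). A minimum of 50 reads gave 17, 21 and 7, no filter on low values 18, 30 and 14, a pseudocount of 1 gave 24, 35 and 10 and one of 5 gave 22, 32 and 2. With PLZF- spleen library 2 and PLZF- lymph node library 1 both left out, an alternative chosen after seeing the data, they were 63, 90 and 25. Of the 44 calls, 40 remained there, 44 with quality weights, 43 and 41 with the other scalings, 42 and 39 with pseudocounts of 1 and 5, 40 with the block described below, 31 with the minimum of 50 reads, 29 with voom, 26 with no filter, 16 with all 24 libraries and 1 with the 6 PLZF- libraries. Leaving out each of the 12 libraries gave 4 to 81 higher, 10 to 64 lower and 2 to 15 that differed between the subsets: PLZF- lymph node library 2 gave the lowest counts (4, 10 and 2), PLZF- lymph node library 1 the most higher and lower genes, and PLZF- spleen library 2 the most that differed. The share of reads from markers of other cells differed by -0.595 to 2.84 percentage points when 1 library was left out, against 1.46. The replicate block gave 28, 34 and 6, but PLZF- spleen and lymph node libraries of the same number share only that number: their deviations from the group means correlated at -0.21, -0.215 and 0.436. The cause of these shifts was not tested.

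No gene past the test in PLZF- cells changed direction. Among other named genes, the log2 difference reversed with both libraries left out for Batf (0.08), Clic4 (-0.018), E2f2 (-0.151), Hif1a (-0.017), Ikzf2 (-0.222) and Trbc1 (0.084), with quality weights for Clic4 (-0.009), E2f2 (-0.137) and Trbc1 (0.038), and with quantile scaling for Flt1 (0.03). With 1 library left out it ranged between -0.077 and 1.156 for Cd83, -0.238 and 3.737 for Fcgr3, -1.49 and 0.645 for Flt1, -0.09 and 0.755 for Hif1a, -0.271 and 0.745 for Ikzf2, and -0.019 and 2.352 for Vwf. Lymph node depth limits low genes, since 3 reads in a PLZF- lymph node library equal 3.42 to 4.58 normalized reads. The floors of 3 reads cover counting error only.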
